A study of Mus musculus with 20 samples.

Results

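The 40 genes described here drive the replication of DNA and the division of the cell. They were taken by symbol, 18 as genes of S phase and 22 as genes of G2 and mitosis. The rule used no measured value, but earlier results of these data were known when the genes were chosen. All 40 were found among the 37620 genes counted, all lie on autosomes, and all 40 passed the filter on low counts in each comparison, with between 310 and 142608 reads on a gene in a mouse. RNA of bulk bone marrow was sequenced from 20 mice, 5 in each of 4 groups. The mice were lethally irradiated wild-type recipients of marrow pooled from several transgenic donors, and donors and recipients were young adults. The donor marrow carried rtTA and a doxycycline-inducible transgene for either U2AF1(S34F), the mutant form of a splicing factor that reads the 3′ end of introns, or U2AF1(WT), which controls for overexpression of the factor. After more than 6 weeks of engraftment every mouse, controls included, ate doxycycline chow (625 ppm) for 7 days. Sudemycin D6, which binds the spliceosome protein SF3B1, or its cyclodextrin vehicle was infused through a jugular catheter over the last 5 of these days. The design sets the genotypes against each other under either infusion and the drug against vehicle in either genotype, and asks whether the drug acts differently in U2AF1(S34F) marrow.

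Cells enter S phase when cyclin E with its kinase releases the E2F factors, which switch on genes for licensing (*Cdc6*, *Cdt1*), the replicative helicase (*Mcm2* to *Mcm7*, *Gins2*), the sliding clamp (*Pcna*) and the supply of nucleotides (*Rrm1*, *Rrm2*, *Tyms*). Genes of G2 and mitosis follow, among them the cyclins A and B with *Cdk1*, the Polo-like and Aurora kinases, the spindle checkpoint and the motors of the spindle, and many of their promoters are repressed outside these phases by the DREAM complex. In bone marrow most dividing cells are committed progenitors of the erythroid, granulocytic and B lineages, while mature neutrophils have left the cycle. The level of such a gene in bulk RNA depends both on how many cells divide and on the RNA in each, and fewer cells in cycle cannot be told apart from less RNA per dividing cell.

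Gene counts summed to between 41145892 and 62138138 per mouse (median 51836276). *U2af1* was higher in U2AF1(S34F) than in U2AF1(WT) mice by 0.48 on the log2 scale under vehicle (FDR=0.000294) and by 0.35 under sudemycin D6 (FDR=0.00416), and its count does not separate transgene from endogenous transcripts. *Xist* had 39145 to 78640 reads in each U2AF1(WT) mouse and 1 to 8 in each U2AF1(S34F) mouse, and 4 Y-linked genes together had 0 to 4 and 10270 to 15034. By these transcripts the marrow of every U2AF1(WT) mouse was female and that of every U2AF1(S34F) mouse was male. Genotype and sex therefore cannot be told apart in any genotype comparison, for autosomal genes and exons as well. The labels call the tissue bulk bone marrow, and transcripts of neutrophils, monocytes, erythroid cells, B cells and progenitors were all present in every group.

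Vehicle-treated U2AF1(WT) mouse 2 stood apart in these genes. The score of a mouse is the mean over genes of the z score of log2 CPM (reads of a gene relative to the size of the library, as scaled by edgeR), in units of the SD over the 20 mice. Over all 40 genes this mouse scored 0.85 and ranked 18 of 20 from the lowest, whereas the other vehicle-treated U2AF1(WT) mice scored between -1.49 and -0.88 and took ranks 1, 2, 3 and 5. It had the highest level of its group in each of the 40 genes. Its summed markers of pro-B and pre-B cells were also the lowest of its group, at 33.4 CPM against 69.9 to 74.7 CPM, and its monocyte markers the highest, at 2701 CPM. The counts of genes called are therefore given with and without this mouse. It was singled out by its levels of these same genes, and leaving it out lowers the level of its group in each of them. Values without this mouse therefore describe its weight in the fits and are no support for a difference.

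**Figure D1:**
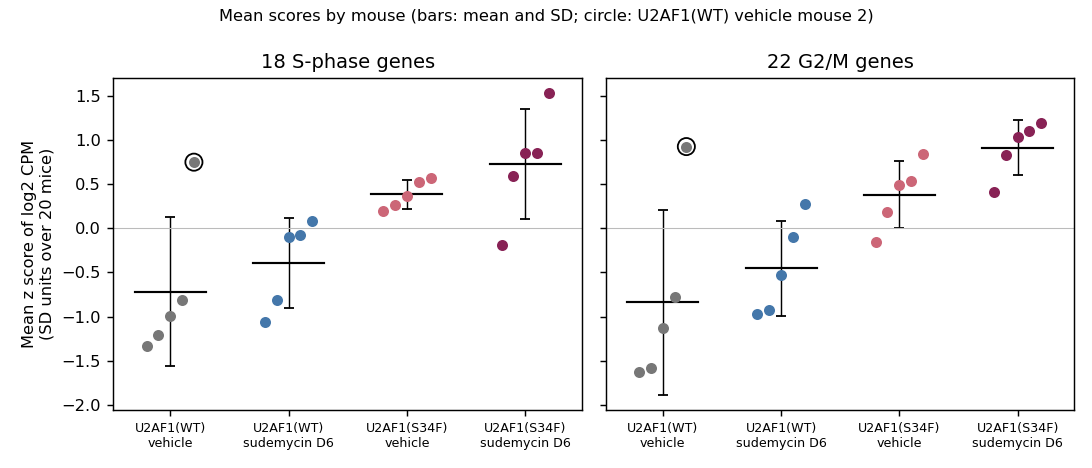
Score of each mouse over the 18 S-phase genes (left) and the 22 G2/M genes (right), as the mean z score of log2 CPM in SD units over 20 mice; lines and bars are the mean and SD of a group of 5, and the open circle marks vehicle-treated U2AF1(WT) mouse 2. The S-phase median is -0.99, -0.10, 0.37 and 0.85 from left to right, and the circled mouse lies above the other 4 mice of its group in both panels.

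Per kilobase of exon, *Mki67* was the most abundant of the 40 genes. It encodes the Ki-67 protein that coats mitotic chromosomes, and its level over all mice was 190.3 CPM per kb. *Top2a*, the topoisomerase that untangles sister chromatids, followed at 86.7 CPM per kb, and *Pcna* at 76.1 CPM per kb. The lowest levels per length were those of *Gins2*, a subunit of the helicase complex, at 2.88 CPM per kb, and *Chek1*, the kinase that halts the cycle at stalled forks, at 3.27 CPM per kb.

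Under vehicle, cell cycle genes were higher in U2AF1(S34F) than in U2AF1(WT) marrow. By the edgeR quasi-likelihood test at FDR<10% (Benjamini-Hochberg adjustment over all genes tested), 20 of the 40 rose and 1, *E2f8*, fell, where 19.7% of all 14817 genes tested rose and 19.8% fell (39.5% in either direction). The median log2 fold change of the 40 was 0.28, beside 0.0021 over all genes, and 37 of 40 values were positive. Of the S-phase genes 9 of 18 rose, and of the G2/M genes 11 of 22. In 6 genes (*Mcm6*, *Tyms*, *Chek1*, *Ccne2*, *Top2a* and *Cenpf*) every U2AF1(S34F) mouse was above every U2AF1(WT) mouse, a pattern held by 9.34% of all genes tested. Without vehicle-treated U2AF1(WT) mouse 2, 36 of 40 rose and none fell, the median was 0.39, and 24.2% of all genes rose. The count was 13 without vehicle-treated U2AF1(WT) mouse 1, without mouse 3 of that group and without vehicle-treated U2AF1(S34F) mouse 11. Of all genes, 15.6%, 15.7% and 16% rose in these fits. The 4 genes that were not called without mouse 2 were *Cdt1*, *E2f1*, *E2f8* and *Plk1*.

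*Ccne2* changed most. It encodes cyclin E2, which with its kinase commits cells to S phase (ENSMUSG00000028212, chr4:11118498-11131926, plus strand, NCBI build 37). In order of mouse number, its level was 17.5, 28.2, 17.3, 15.9 and 21.8 CPM in vehicle-treated U2AF1(WT) mice and 43.8, 38, 33.7, 41.2 and 39.6 CPM in vehicle-treated U2AF1(S34F) mice. The groups did not overlap, and mouse 2 was the highest U2AF1(WT) mouse. The log2 fold change was 0.95 (SE 0.14, FDR=0.000377), and 1.09 without that mouse. *Ccne1*, which encodes the other E-type cyclin, was at 17.2, 26.3, 15.3, 13.7 and 17.2 CPM and at 22.4, 20.4, 20.7, 20.9 and 20.6 CPM in the same groups. Mouse 2 had the highest value of the 10, all other U2AF1(WT) mice lay below all U2AF1(S34F) mice, and the difference of 0.21 was not called (FDR=0.26), while without that mouse it was 0.39 (FDR=0.00376).

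Genes for nucleotide supply rose as well. *Tyms* encodes thymidylate synthase, which makes the thymidine nucleotide for DNA. It stood at 47.7, 62.5, 51.7, 44.6 and 56.5 CPM in vehicle-treated U2AF1(WT) mice and at 79.6, 72.4, 81.6, 83.2 and 82.1 CPM in vehicle-treated U2AF1(S34F) mice, without overlap, a log2 fold change of 0.58 (SE 0.0883, FDR=0.0005). *Rrm2*, the small subunit of ribonucleotide reductase, had 112, 147, 108, 119.5 and 117 CPM and 141, 133, 142, 173 and 159 CPM. Here mouse 2 reached into the range of the U2AF1(S34F) mice, and the log2 fold change was 0.29 (SE 0.0958, FDR=0.0333). *Rrm1*, the large subunit, differed by 0.26 and was just outside the threshold (FDR=0.101).

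Of the 6 genes of the MCM helicase, *Mcm4*, *Mcm6* and *Mcm7* rose, by 0.27, 0.35 and 0.29 on the log2 scale. *Mcm2* was at 98.3, 118, 88.3, 93.1 and 92.1 CPM in vehicle-treated U2AF1(WT) mice and 122, 128, 103, 101 and 115 CPM in vehicle-treated U2AF1(S34F) mice, and mouse 2 alone reached into the U2AF1(S34F) range. Its difference of 0.20 was not called (FDR=0.114), nor were those of *Mcm3* and *Mcm5*. *Pcna* had 171, 202, 162, 147 and 179 CPM and 209.5, 204, 189, 201 and 193 CPM. Again mouse 2 alone among the U2AF1(WT) mice lay within the U2AF1(S34F) range, and the log2 fold change was 0.20 (SE 0.0835, FDR=0.0872). Reads of *Pcna* and *Ccnb2* could also fall on their annotated pseudogenes. *Cdc6*, which loads the helicase, rose by 0.33 (FDR=0.0234) and *Chek1* by 0.42 (FDR=0.00323).

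The E2F genes themselves were not among those that rose. *E2f1*, an activator of S-phase transcription, was at 17.1, 17.6, 13.6, 17.5 and 14.2 CPM in vehicle-treated U2AF1(WT) mice and 17.9, 16.4, 16.8, 17.1 and 16.8 CPM in vehicle-treated U2AF1(S34F) mice, with wide overlap and a difference of 0.07 (SE 0.0918). *E2f8*, an atypical E2F that represses the same targets, fell from 83.6, 88.4, 81.1, 80.1 and 82.3 CPM to 68.5, 60.4, 78.4, 81.1 and 79.8 CPM, a log2 fold change of -0.19 (SE 0.0844, FDR=0.0995) at the edge of the threshold. It was not called without mouse 2 (FDR=0.109). *Cdt1*, the licensing factor that is destroyed once S phase begins, differed by -0.14 and was not called (FDR=0.318).

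Among genes of G2 and mitosis, *Top2a* and *Nusap1*, which encodes a spindle-assembly protein, rose most. *Top2a* had 582, 760.1, 544, 532 and 671 CPM in vehicle-treated U2AF1(WT) mice and 899.6, 884, 859, 1029 and 912 CPM in vehicle-treated U2AF1(S34F) mice. The groups did not overlap, and the log2 fold change was 0.55 (SE 0.10, FDR=0.00186). *Nusap1* rose by 0.57 (SE 0.16, FDR=0.0215) and *Cenpe*, a kinetochore motor, by 0.47 (SE 0.12, FDR=0.0108). *Cdk1*, the kinase that drives entry into mitosis, was at 77, 94.8, 73.4, 67 and 78.6 CPM and 92.6, 95, 92.6, 111 and 101 CPM, and mouse 2 was the sole U2AF1(WT) mouse in the range of the U2AF1(S34F) mice. The log2 fold change of *Cdk1* was 0.31 (SE 0.0894, FDR=0.0179).

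*Mki67* was at 1654, 2322, 1431, 1187 and 1792 CPM in vehicle-treated U2AF1(WT) mice and 1923, 1897, 2319.7, 2546 and 2091 CPM in vehicle-treated U2AF1(S34F) mice. Mouse 2 exceeded 4 of the 5 U2AF1(S34F) mice, and the difference of 0.35 was not called (FDR=0.101), whereas it was 0.49 without that mouse (FDR=0.00974). *Ccnb1*, the cyclin partner of *Cdk1*, had 58.6, 105, 56.6, 57.7 and 69.7 CPM and 89.1, 82.2, 84.7, 89.8 and 90.2 CPM. Its highest value of the 10 was again mouse 2, and its difference of 0.31 (FDR=0.112) became 0.50 without it (FDR=0.000269). *Plk1*, the Polo-like kinase, was the sole G2/M gene with a negative value, at -0.12 (FDR=0.526), and at 0.01 without mouse 2.

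**Figure D2:**
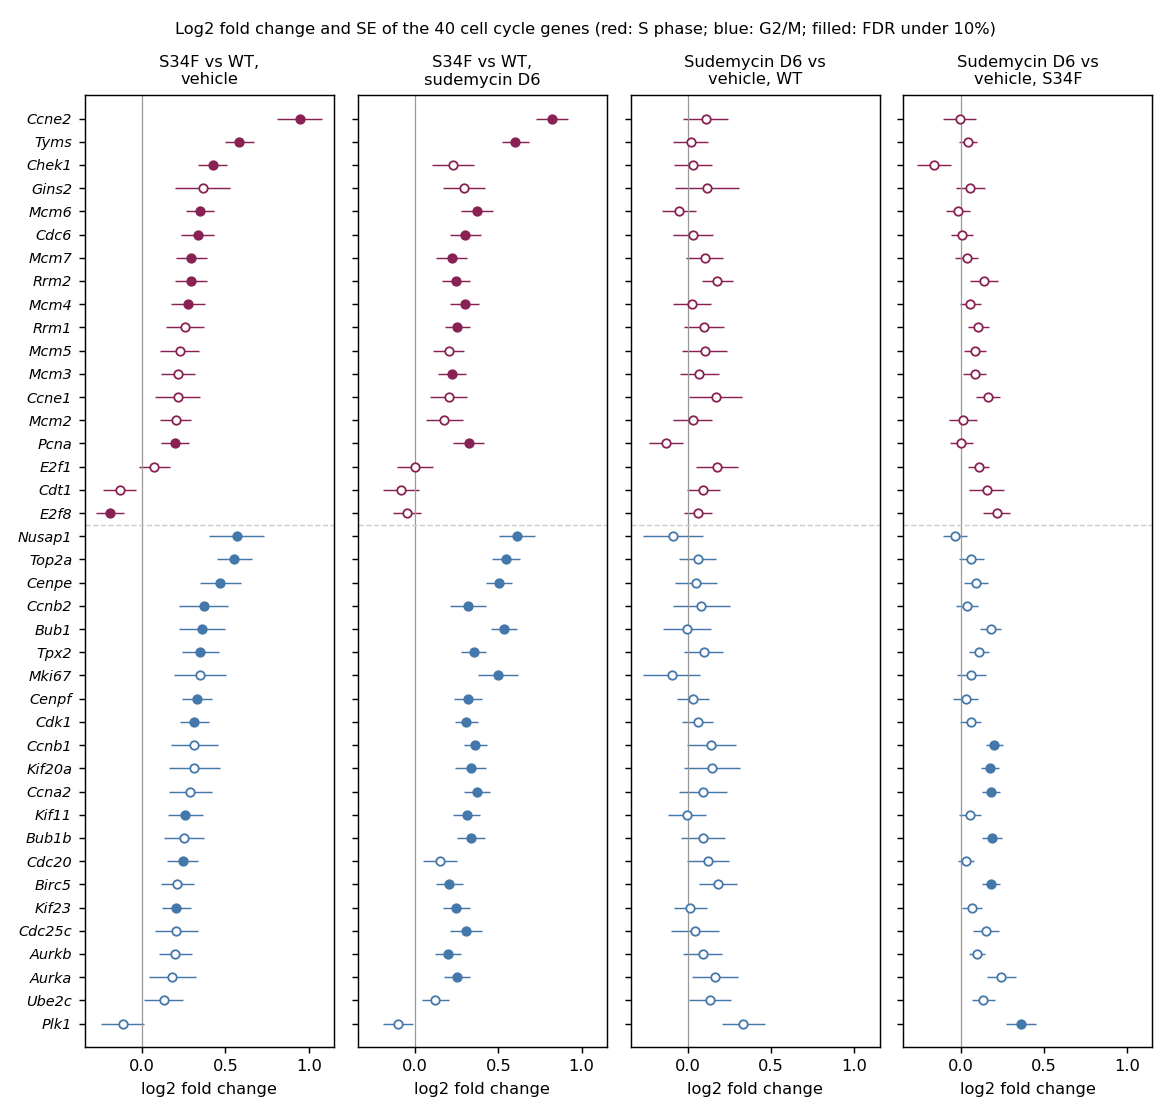
Log2 fold change (x axis) of each of the 40 genes (rows, S phase above the dashed line, G2/M below) in 4 comparisons; bars are the SE of the edgeR fit and filled points have FDR<10%. Of 40 points, 21 are filled for the genotypes under vehicle, 29 under sudemycin D6, 0 for the drug with U2AF1(WT) and 6 for the drug with U2AF1(S34F).

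Under sudemycin D6, cell cycle genes were again higher in U2AF1(S34F) marrow. It was higher in 29 of the 40 and lower in 0, where 17.2% of all 14677 genes tested rose and 19.6% fell (36.8% in either direction). The median log2 fold change was 0.30, beside -0.027 over all genes. Of the 22 G2/M genes 19 rose, and of the 18 S-phase genes 10. In 19 genes every U2AF1(S34F) mouse was above every U2AF1(WT) mouse, a pattern held by 11.8% of all genes. This comparison shares no mouse with the one under vehicle. Donor marrow was pooled within a genotype, however, so both comparisons may rest on the same donors, and genotype and sex cannot be told apart in either. The 3 G2/M genes that were not called were *Plk1*, *Cdc20* and *Ube2c*.

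*Ccne2* was at 21.6, 21.3, 20.8, 23.1 and 21.6 CPM in sudemycin-treated U2AF1(WT) mice and 40.5, 29.5, 44.2, 41.4 and 41.6 CPM in sudemycin-treated U2AF1(S34F) mice, for a log2 fold change of 0.82 (SE 0.0974, FDR=0.000203). *Tyms* was at 57.2, 58, 55.2, 51.5 and 44.3 CPM and 86.7, 73.8, 82.2, 88.3 and 83.8 CPM, with a log2 fold change of 0.60 (SE 0.0811, FDR=0.000419). In both genes the U2AF1(WT) mice lay below every U2AF1(S34F) mouse, of which mouse 6 was the lowest. For *Ccne2* the U2AF1(WT) mice also lay close together. *Bub1*, a kinase of the spindle checkpoint, had 51.8, 55.4, 48.6, 48.8 and 46 CPM against 78.6, 62.5, 78.1, 80.3 and 73.5 CPM and rose by 0.53 (SE 0.078, FDR=0.000669), with no overlap. Under vehicle *Bub1* had been at 44.8, 72.2, 44, 37.3 and 53.4 CPM and 68.7, 61.2, 64.1, 66.2 and 65.8 CPM, where mouse 2 exceeded all U2AF1(S34F) mice and the log2 fold change was 0.36 (SE 0.14, FDR=0.0608).

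*Top2a* again separated the genotypes, at 641, 697, 637, 611 and 632 CPM and 999, 820.4, 1008, 1003 and 1000.05 CPM, with a log2 fold change of 0.55 (SE 0.0831, FDR=0.000849). *Mki67* did so here as well, at 1601, 1708, 1873, 1459 and 1191 CPM in sudemycin-treated U2AF1(WT) mice and 2305, 2118, 2334, 2232 and 2363 CPM in sudemycin-treated U2AF1(S34F) mice, for a log2 fold change of 0.50 (SE 0.12, FDR=0.00916). *Cdk1* (87.7, 83.3, 83.9, 79.5 and 72.6 CPM against 105, 92.8, 102, 109 and 107 CPM) rose by 0.31 (SE 0.0688, FDR=0.00699), and *Ccnb1* (79.3, 80.5, 82.3, 72.2 and 68.5 CPM against 106, 94.4, 95, 108 and 103 CPM) by 0.36 (SE 0.0699, FDR=0.00312). Neither gene overlapped between the genotypes. *Pcna* (183, 146, 142, 167 and 147 CPM against 209, 168, 199, 219.7 and 214 CPM) rose by 0.32 (SE 0.0935, FDR=0.0233) with 1 U2AF1(S34F) mouse inside the U2AF1(WT) range.

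As under vehicle, the E2F genes and *Cdt1* were not among the genes that rose. *E2f1* was at 18.2, 21.1, 13.6, 19.3 and 18 CPM in sudemycin-treated U2AF1(WT) mice and 19.4, 17.9, 18.3, 20.2 and 16.7 CPM in sudemycin-treated U2AF1(S34F) mice (FDR=0.998). *E2f8* differed by -0.05 (FDR=0.706) and *Cdt1* by -0.08 (FDR=0.603). *Ccne1* (24.6, 19.9, 18.5, 21.3 and 16.3 CPM against 22, 20.4, 24.4, 26.2 and 26 CPM) differed by 0.20 and *Mcm2* (120.3, 92.8, 82.5, 116 and 87.9 CPM against 119, 100.03, 115, 133 and 113 CPM) by 0.18. Neither was called (FDR=0.195 and 0.267), and the mice of both groups were interleaved.

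**Figure D3:**
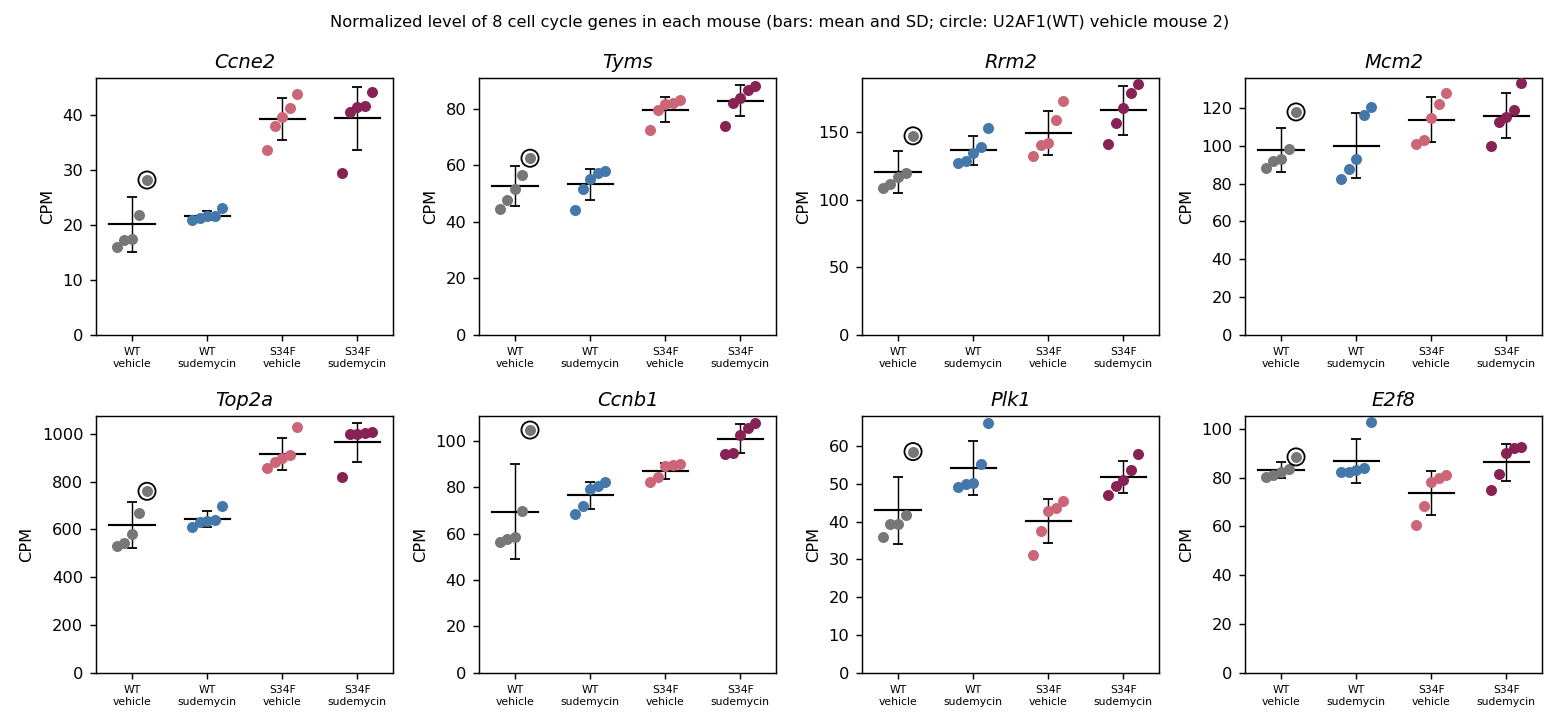
CPM of 8 of the genes (y axes, from 0) in each mouse of the 4 groups (x axes); lines and bars are the mean and SD of 5 mice, and the open circle marks vehicle-treated U2AF1(WT) mouse 2. *Ccne2*, *Tyms* and *Top2a* separate the genotypes under either infusion, *Plk1* is higher with sudemycin D6 in U2AF1(S34F) mice, and the circled mouse is the highest of its group in all 8 genes.

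Some markers of other cells in the marrow differed between genotypes beside these genes. Of all genes tested, 39.5% were called in either direction under vehicle (19.7% rose) and 36.8% under sudemycin D6 (17.2% rose). Of 7 markers of promyelocytes and primary granules, cells that still divide, 5 rose under vehicle (among them *Cebpe* by 0.59 and *Gfi1* by 0.41 on the log2 scale) and 3 under sudemycin D6. Their summed level was 2458 to 3048 CPM in vehicle-treated U2AF1(WT) mice, against 2721 to 3785 CPM in vehicle-treated U2AF1(S34F) mice. It was 2363 to 3477 CPM and 2592 to 4356 CPM under the drug. The sum of 10 late neutrophil genes was 49625 to 59326 CPM and 70395 to 120791 CPM under vehicle, without overlap, and 45891 to 84166 CPM and 60934 to 105437 CPM under the drug, although 3 of the 10 rose and 1 fell under vehicle and 2 rose and 2 fell under the drug. Of 10 early erythroid markers 1 fell under vehicle and 6 under sudemycin D6, where their sum was 104 to 367 CPM in U2AF1(WT) and 97.6 to 187 CPM in U2AF1(S34F) mice. Of 7 T and NK cell markers 2 rose and 1 fell under vehicle and 4 fell under the drug, of 6 monocyte markers 2 fell, and 2 rose and 1 fell, and of 6 mature B cell markers 1 and 2 fell. Of 9 late erythroid markers 0 changed under vehicle and 2 fell under the drug, and of 7 markers of stromal cells 1 rose and 2 fell, and 1 fell. Of 8 stem and progenitor markers 1 rose and 2 fell under vehicle, and 0 passed the test under the drug. Their sum was 120.3 to 171 CPM and 145 to 179.6 CPM under vehicle. Of the pro-B and pre-B markers 0 of 10 tested were called under vehicle and 3 of 9 fell under the drug, where their sum was 13.3 to 74.3 CPM and 17.9 to 28.7 CPM. None of these markers was at 0 in every mouse of a group. Their part in the differences of the cell cycle genes was not tested.

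Within a genotype, few of these genes were called for sudemycin D6 by edgeR with all mice, and those were genes of G2 and mitosis. Whether the drug's change differs between S-phase and G2/M genes was not tested. In U2AF1(WT) mice 0 of the 40 passed FDR<10%, where 1.18% of all 14763 genes rose and 1.89% fell (3.07% in either direction), and DESeq2 called 0 as well. The median log2 fold change was 0.084 and 34 of 40 values were positive. An unadjusted p under 0.05 was found for 1 of the 40 and for 13.3% of all genes. Without vehicle-treated U2AF1(WT) mouse 2 the median was 0.19, 39 of 40 values were positive, and *Ccnb1* and *Plk1* were called, where 1.96% of all genes rose.

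In U2AF1(S34F) mice 6 of the 40 rose with the drug and 0 fell, where 4.94% of all 14714 genes rose and 5.85% fell (10.8% in either direction). All 6 were G2/M genes: *Plk1*, *Ccnb1*, *Ccna2*, *Bub1b*, *Birc5* and *Kif20a*. In each of them every sudemycin-treated mouse was above every vehicle-treated mouse, as in 3.8% of all genes. The median log2 fold change of the 40 was 0.084, and 36 values were positive. DESeq2 called 8, where 7.69% of all genes rose. A single model of all 20 mice called 0, where 2.57% of all genes rose. The count was 1 without sudemycin-treated mouse 2, where 2.75% of all genes rose. It was 2 without any 1 of sudemycin-treated mice 10 and 12 and vehicle-treated mice 1, 3 and 11. In those fits 2.88% to 4.2% of all genes rose.

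*Plk1* drives entry into mitosis and the building of the spindle. It was at 37.5, 31.2, 43.6, 42.7 and 45.6 CPM in vehicle-treated and 53.8, 49.5, 51.1, 58 and 47.1 CPM in sudemycin-treated U2AF1(S34F) mice, for a log2 fold change of 0.36 (SE 0.0904, FDR=0.0387). In U2AF1(WT) mice it was at 39.3, 58.6, 36, 41.9 and 39.3 CPM and 49.9, 66.1, 55.4, 50.4 and 49.1 CPM, where only mouse 2 of the vehicle-treated mice reached the sudemycin-treated range. That difference was 0.33 (FDR=0.267), and 0.46 without mouse 2 (FDR=0.0347). With genotype as a term and all 20 mice in the fit, *Plk1* rose by 0.36 (SE 0.0809, FDR=0.00658).

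*Ccnb1* rose by 0.20 (SE 0.0515, FDR=0.042) in U2AF1(S34F) mice, from 89.1, 82.2, 84.7, 89.8 and 90.2 CPM to 106, 94.4, 95, 108 and 103 CPM. With the U2AF1(WT) transgene it had 58.6, 105, 56.6, 57.7 and 69.7 CPM and 79.3, 80.5, 82.3, 72.2 and 68.5 CPM, and the difference was 0.14 (FDR=0.752), or 0.33 without mouse 2 (FDR=0.086). *Ccna2*, which encodes cyclin A, went from 171, 167, 169, 179 and 173 CPM to 204, 179, 187, 209.7 and 202 CPM in U2AF1(S34F) mice, for a log2 fold change of 0.18 (SE 0.0538, FDR=0.0671). In U2AF1(WT) mice it was at 126, 201, 113, 117 and 139 CPM and 152, 168, 150.4, 139.8 and 129 CPM (0.09, FDR=0.854). In both genes the U2AF1(S34F) groups did not overlap, and mouse 2 was the highest of the vehicle-treated U2AF1(WT) mice.

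*Birc5* encodes survivin, which acts with the Aurora B kinase at centromeres. It was at 52.5, 76.6, 51.8, 56.3 and 56.9 CPM and 59.4, 78.2, 65.3, 60.3 and 69.6 CPM in vehicle- and sudemycin-treated U2AF1(WT) mice, a difference of 0.18 (FDR=0.546). In U2AF1(S34F) mice it rose from 67.7, 61.1, 71.8, 71.8 and 71.9 CPM to 79, 72.4, 80.7, 83.7 and 78.4 CPM, by 0.18 (SE 0.0548, FDR=0.0712). *Rrm2*, of the S-phase genes the one with the smallest p for the drug in U2AF1(WT) mice, differed by 0.18 there (FDR=0.45), against 0.14 in U2AF1(S34F) mice (FDR=0.361). Over all 20 mice with genotype as a term, 3 of 40 rose and 0 fell, where 7.78% of all 15392 genes rose and 7.22% fell (15% in either direction). This count was near the share of all genes that rose. The 3 genes were *Rrm2* (0.17, SE 0.0629, FDR=0.0907), *Plk1* and *Birc5* (0.19, SE 0.0642, FDR=0.0589). Without vehicle-treated U2AF1(WT) mouse 2 the same fit called 18 of 40 as higher, where 10.8% of all genes were. Among the 18 were the S-phase genes *Mcm3*, *Mcm5*, *Rrm1*, *Rrm2*, *E2f8* and *Ccne1*, and the others were G2/M genes. The fit called 1 without any 1 of vehicle-treated U2AF1(WT) mice 1 and 3, sudemycin-treated U2AF1(WT) mouse 8 and vehicle-treated U2AF1(S34F) mouse 3. In those fits 6% to 6.21% of all genes rose.

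Several genes that rose between genotypes were not called for the drug in either genotype. *Top2a* differed by 0.06 and 0.06 in U2AF1(WT) and U2AF1(S34F) mice, *Mki67* by -0.10 and 0.06, and *Cdk1* by 0.06 and 0.06. *Ccne2* differed by 0.11 in U2AF1(WT) mice, with SE 0.14, and by -0.01 in U2AF1(S34F) mice, with SE 0.0989.

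No difference between genotypes in the drug's change was detectable in these genes. The interaction fitted on all 20 mice called 0 of the 40, by edgeR and by DESeq2, where 0.013% of all 15392 genes were called by edgeR, and 0 of the 40 but 7.43% of all genes had an unadjusted p under 0.05. The median of the 40 differences was -0.0032, with 19 of 40 positive. Without vehicle-treated U2AF1(WT) mouse 2 it was -0.11 with 4 of 40 positive, beside -0.045 over all genes, and still 0 were called.

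Some markers of progenitors and of early lineage cells were lower with the drug. Of all genes tested, 1.89% fell in U2AF1(WT) and 5.85% in U2AF1(S34F) mice. Of 8 stem and progenitor markers 3 fell in U2AF1(WT) and 5 in U2AF1(S34F) mice, among the latter *Kit* by 0.57 on the log2 scale. Their sum was 145 to 179.6 CPM in vehicle-treated and 97.2 to 135 CPM in sudemycin-treated U2AF1(S34F) mice, without overlap, and 120.3 to 171 CPM and 70.3 to 145 CPM in U2AF1(WT) mice. Of 10 pro-B and pre-B markers 3 fell in U2AF1(WT) and 4 in U2AF1(S34F) mice, and of 10 early erythroid markers 0 and 5. Of 7 promyelocyte and primary granule markers 0 were called in either genotype. Of 10 late neutrophil markers 1 fell in each genotype. In U2AF1(S34F) mice 1 of 6 monocyte markers rose, while 2 of 7 T and NK cell and 1 of 7 stromal markers fell. The summed pro-B and pre-B markers ranged over 12.8 to 94.1 CPM in vehicle-treated and 17.9 to 28.7 CPM in sudemycin-treated U2AF1(S34F) mice. No marker of these lists was at 0 in every mouse of a group. Their part in the change of the cell cycle genes was not tested.

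Sudemycin-treated U2AF1(S34F) mice were higher than vehicle-treated U2AF1(WT) mice in 37 of the 40 genes and lower in 0, where 25.1% of all 14761 genes rose and 50.2% were called. The median log2 fold change was 0.37. This comparison shares its mice with the 4 above. The 3 genes that were not called were *Cdt1*, *E2f1* and *E2f8*. *Tyms*, *Ccne2* and *Top2a* alone did not overlap between the groups, a pattern held by 11.5% of all genes. The largest changes were those of *Ccne2* (0.95, SE 0.15, FDR=0.000372), *Tyms* (0.64, SE 0.0874, FDR=0.000136) and *Top2a* (0.63, SE 0.10, FDR=0.000445).

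**Figure D4:**
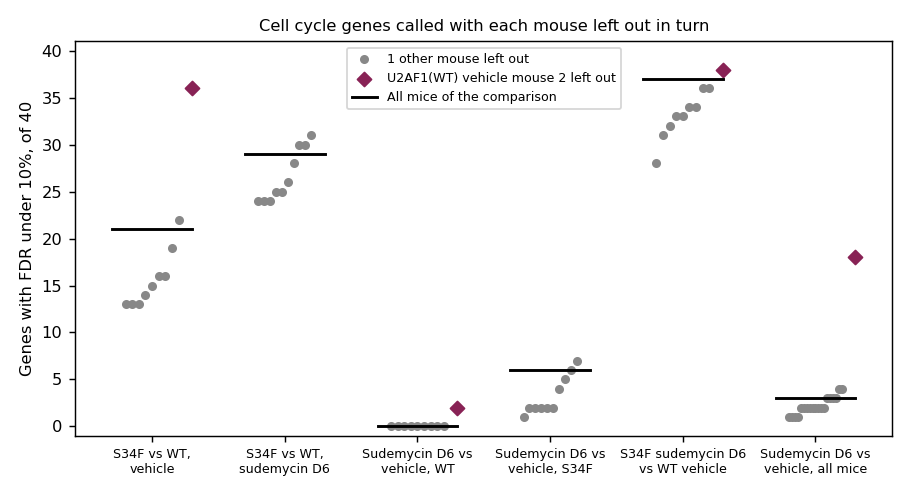
Number of the 40 genes with FDR<10% (y axis) in 6 comparisons (x axis); the black line is the count with every mouse of the comparison, grey points leave out 1 mouse each and the diamond leaves out vehicle-treated U2AF1(WT) mouse 2. Without that mouse the count goes from 21 to 36 for the genotypes under vehicle (39.5% and 46.3% of all genes). It goes from 3 to 18 for the drug over all mice (15% and 19.5% of all genes).

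The 40 genes moved together from mouse to mouse. The S-phase and G2/M scores of the 20 mice had Pearson's r of 0.874, and of 0.7102 once the mean of each group was removed. The points share the same libraries and depth. They include vehicle-treated U2AF1(WT) mouse 2, the highest of its group in all 40 genes, and correlations without that mouse were not computed. *Ccna2* followed the mean of the other 39 genes most closely (r of 0.9797 over 20 mice). The lowest were *E2f8* (0.149), *Cdt1* (0.222), *Plk1* (0.398) and *E2f1* (0.468). For *Plk1* the value was 0.799 after removal of group means and for *E2f8* it was 0.559. Of 15352 other expressed genes, those whose log2 CPM followed the mean of the 40 best over 20 mice were *Mcm10* (0.978), a replication factor, *Gtse1* (0.970), *Plac8* (0.969), *Suv39h1* (0.964), a histone methyltransferase, and *Nono* (0.961).

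Many other genes of replication and mitosis rose between genotypes too. Of all genes tested, 19.7% rose and 19.8% fell under vehicle, and 17.2% rose and 19.6% fell under sudemycin D6. Of 30 further replication genes, 20 rose and 0 fell between the genotypes under vehicle (median log2 fold change 0.33), and 19 rose and 1 fell under sudemycin D6. Of 45 further mitosis genes 26 rose and 4 fell under vehicle, and 31 rose and 1 fell under the drug. *Ndc80*, a subunit of the kinetochore, had the largest rise among them, by 0.77 (FDR=0.00129) under vehicle and 0.77 (FDR=0.000348) under sudemycin D6. For the drug, 0 of the 45 mitosis genes passed the test in U2AF1(WT) mice, where 3.07% of all genes did. In U2AF1(S34F) mice 3 of the 45 rose, where 4.94% of all genes did. Among the 3 was *Cdc25b*, a phosphatase that activates CDK1, which rose by 0.52 (FDR=0.000872). Of 67 histone genes tested that are made in S phase, 29 rose and 9 fell under vehicle and 10 rose and 13 fell under sudemycin D6, between genotypes. The histone counts under sudemycin D6 were near the shares of all genes.

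Genes that act before S phase and genes that restrain the cycle had mixed directions. Of 20 G1 cyclins, CDKs and E2F and RB genes, 4 rose and 3 fell between genotypes under vehicle, and 3 rose and 4 fell under sudemycin D6. These counts were near the shares of all genes, of which 39.5% were called under vehicle and 36.8% under sudemycin D6. *Mybl2*, which joins subunits of DREAM to activate mitotic genes, rose by 0.30 (FDR=0.0218) and 0.22 (FDR=0.074). *Foxm1*, the forkhead activator of mitotic genes, fell by 0.30 under vehicle (FDR=0.0261), from 82.2 ± 8.8 CPM to 67.7 ± 7.26 CPM (mean ± SD, n=5). It rose with the drug in U2AF1(S34F) mice by 0.34 (FDR=0.0288), to 86.5 ± 8.27 CPM. Its difference with the drug in U2AF1(WT) mice was 0.08 (FDR=0.817), and the interaction was not called (FDR=0.723).

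*Cdkn1a* encodes p21, an inhibitor of CDKs that p53 induces. Its mean was 12.3 ± 1.38 CPM in vehicle-treated U2AF1(WT) mice and 6.16 ± 1.43 CPM in vehicle-treated U2AF1(S34F) mice, lower by 1.01 on the log2 scale (FDR=0.000436). With sudemycin D6 it rose in U2AF1(S34F) mice to 10.8 ± 2.15 CPM, by 0.79 (FDR=0.0204), while in U2AF1(WT) mice it was at 10.2 ± 2.82 CPM, a difference of -0.27 (FDR=0.536). The interaction was 1.04 with FDR=0.247 and was not called. *Gadd45a*, another gene of the damage response, was lower in U2AF1(S34F) mice under vehicle (-0.81, FDR=0.00018) and under the drug (-0.89, FDR=0.000315), and lower with the drug in U2AF1(S34F) mice (-0.47, FDR=0.00488). *Cdkn1b*, which encodes p27, was not called in any comparison of genotype or drug alone, with differences of -0.16 and -0.21 between genotypes.

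Of the D-type cyclins, which respond to growth signals, *Ccnd1* and *Ccnd3* were lower in U2AF1(S34F) mice under sudemycin D6, at -0.90 (FDR=0.0958) and -0.33 (FDR=0.0532), and *Ccnd2* was at -0.52 and was not called. Under vehicle the 3 genes were at -0.27, -0.28 and -0.22, none of them called. *Myc* was lower under vehicle (-0.55, FDR=0.0244), and under the drug its difference of -0.33 was not called (FDR=0.4). *Cdkn1c*, an inhibitor that marks quiescent cells, rose under vehicle by 0.93 (FDR=0.0068), and *Cdkn3*, a phosphatase of CDKs whose own transcript peaks in mitosis, rose under vehicle by 0.76 (FDR=0.000761) and under sudemycin D6 by 0.75 (FDR=0.000306). Of the 6 CDK inhibitor genes tested, 2 rose and 2 fell under vehicle and 1 rose and 1 fell under sudemycin D6, and of 13 checkpoint and DNA damage genes 6 rose and 2 fell, and 5 rose and 3 fell. The shares of all genes called were 39.5% under vehicle and 36.8% under sudemycin D6. *Cdc7*, the kinase that fires origins, fell with the drug in U2AF1(S34F) mice by 0.26 (FDR=0.0803).

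Because the G2/M genes and the S-phase genes are switched on through different promoter elements, the bases upstream of their starts were read from RefSeq (GRCm38.p6), which held a window of 250 bases before to 50 after the start for 32 of the 40 genes (33 windows, since *Mcm7* has 2). The 110 bases before the start are printed 5′ to 3′ for 3 G2/M genes and 2 S-phase genes, chosen after they were seen as clear examples. Capitals mark matches on either strand. The strings searched were CCAAT, then for the element called CHR the letters TTTGAA and also the letters TTTAAA, and for E2F sites the letters TTCCCGC, then the letters TTGGCGC and last the letters TTCGCGC. The first string can overlap an E2F string.
Cdk1 (chr10:69352913-69353022, minus strand): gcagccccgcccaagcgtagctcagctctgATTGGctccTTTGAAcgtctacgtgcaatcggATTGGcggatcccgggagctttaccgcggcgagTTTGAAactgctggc
Top2a (chr11:99024190-99024299, minus strand): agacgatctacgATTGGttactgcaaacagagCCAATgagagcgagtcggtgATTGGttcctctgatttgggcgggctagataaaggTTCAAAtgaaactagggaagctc
Ccnb1 (chr13:100786487-100786596, minus strand): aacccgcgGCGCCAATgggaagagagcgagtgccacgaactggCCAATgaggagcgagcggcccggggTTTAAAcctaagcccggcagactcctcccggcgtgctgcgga
Mcm6 (chr1:128359706-128359815, minus strand): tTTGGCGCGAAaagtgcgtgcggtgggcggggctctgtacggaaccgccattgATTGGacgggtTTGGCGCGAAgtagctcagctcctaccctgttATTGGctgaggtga
Rrm1 (chr7:102441585-102441694, plus strand): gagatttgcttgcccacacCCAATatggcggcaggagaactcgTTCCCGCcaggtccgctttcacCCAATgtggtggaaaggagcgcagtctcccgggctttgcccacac

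The letters CCAAT were found in 15 of 17 G2/M genes (88.2%) and 9 of 15 S-phase genes (60.0%) with a window, and in 41.1% of the 27025 genes with a window. TTTGAA or TTTAAA was found in 15 of these 17 G2/M genes and 5 of these 15 S-phase genes, and in 30.6% of all genes. At least 1 of the E2F strings was in 9 of the 15 S-phase genes and 3 of the 17 G2/M genes, and in 9.2% of all genes. *Cdk1* and *Top2a* carry several copies of CCAAT and a TTTGAA close to the start. *Mcm6* carries TTGGCGC and TTCGCGC in overlapping pairs.

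Since U2AF1 and SF3B1 both act at 3′ splice sites, the exons of the 40 genes were examined in the counts of splice junctions. Junctions with annotated ends gave 311 cassette exon events in 39 of the 40 genes, of 77932 in all. Inclusion is the mean count of the 2 junctions into and out of an exon, as a percentage of that mean plus the count of the junction that skips it, and an event was called at FDR<10% with a change of over 1 percentage point. Between genotypes 10 of 245 events tested in these genes were called under vehicle (7 skipped more in U2AF1(S34F) mice), where 3.34% of all events were, and 10 of 246 under sudemycin D6 (5 skipped more), where 2.98% were. For the drug 0 of 222 were called in U2AF1(WT) mice (0.851% of all events), 2 of 259 in U2AF1(S34F) mice (1.26%) and 2 of 301 over all mice (1.36%). Between sudemycin-treated U2AF1(S34F) and vehicle-treated U2AF1(WT) mice 11 of 242 were called (4.67%), and the interaction called 0 of 301 (19 with an unadjusted p under 0.05). The counts of events called in these genes were near the shares of all events called. How many of all events were skipped more was not counted. These counts rest on a fit in which the dispersion of counts is set to 0. limma on inclusion called 0 in the comparisons of genotype and of drug within a genotype. It called 3 in the comparison of both factors together (1.09% of all events) and 1 for the drug over all mice (0.513%). edgeR with an estimated dispersion called 0 in each. Without 1 mouse the 10 events under sudemycin D6 became 4 (U2AF1(WT) mouse 10, 2.57% of all events) or 5 (U2AF1(S34F) mouse 2, 1.94%). They became 6 without U2AF1(S34F) mouse 9 (1.81%) or 10 (1.99%). The 0 for the drug in U2AF1(WT) mice became 1 or 2 without any mouse but sudemycin-treated mouse 12 (1.39% to 1.76%). The 2 in U2AF1(S34F) mice became 4 without vehicle-treated mouse 3 (1.1%). The 11 became 7 without sudemycin-treated U2AF1(S34F) mouse 9 (3.28%).

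Of the called events, 5 had at least 10 reads on either form in every mouse and are described. They lie in *Kif23*, *Mki67* and *Birc5*. Their 3′ splice sites are printed 5′ to 3′ as the last 20 bases of the intron and the 3 bases that open the exon (NCBI build 37), with the last 3 bases of the intron in capitals, since U2AF1 contacts the AG at the end of the intron and its S34F form is known for a changed preference at the base before it. That base is T in 3 sites, C in the site of *Birc5* and A in the site of the 960-base exon of *Mki67*. All 5 exons are coding in the annotation.
Kif23 42-base exon (chr9:61781075-61781097, minus strand): ctgccttattccttcggTAGgtg
Kif23 312-base exon (chr9:61772021-61772043, minus strand): tgtttctccaatttttcTAGctt
Mki67 960-base exon (chr7:142900001-142900023, minus strand): atttcatatttattgccAAGatg
Mki67 116-base exon (chr7:142905553-142905575, minus strand): cctctcctctctcctcgTAGgca
Birc5 110-base exon (chr11:117711048-117711070, plus strand): tcacgagctgtcattttCAGatg
Kif23 42-base exon, whole (chr9:61781036-61781077, minus strand): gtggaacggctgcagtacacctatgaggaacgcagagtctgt

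*Kif23* encodes the motor of the central spindle, which cells need to finish division. Its exon of 42 bases (a multiple of 3) was skipped more in U2AF1(S34F) mice. Inclusion was 47.7%, 41.5%, 46.9%, 46.8% and 45.9% in vehicle-treated U2AF1(WT) mice, against 24.8%, 32.9%, 39%, 27.6% and 19.96% in vehicle-treated U2AF1(S34F) mice, in order of mouse number. The groups did not overlap, and the difference was -16.9 percentage points (FDR=1.66e-10). Under sudemycin D6 it was 29%, 45.8%, 38.4%, 33.3% and 36.5% in U2AF1(WT) mice, against 25.2%, 33.4%, 26.1%, 27.6% and 24.2% in U2AF1(S34F) mice, which overlapped, with a difference of -9.29 points (FDR=0.000171). limma on inclusion gave FDR=0.157 and 0.564 for these. In U2AF1(WT) mice the drug's difference of -9.14 points was not called (FDR=0.215), and in U2AF1(S34F) mice it was -1.54 (FDR=0.697). Each mouse had between 387 and 724 junction reads at this exon.

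A second exon of *Kif23*, of 312 bases, moved in the same direction. This gene is known for a longer product, CHO1, and a shorter one, MKLP1, that differ by an alternative exon. Inclusion was 43.4%, 46.7%, 43%, 43.9% and 46.6% in vehicle-treated U2AF1(WT) mice, against 31.7%, 35.9%, 32.9%, 34.2% and 23.3% in vehicle-treated U2AF1(S34F) mice. These did not overlap, and the difference was -13.1 points (FDR=5.72e-07, limma FDR=0.1). Under sudemycin D6 inclusion was 38.3%, 33.6%, 37.7%, 44.5% and 42.1% and 37.8%, 32.1%, 29.5%, 33.6% and 28%, a difference of -7.02 points (FDR=0.0697, limma FDR=0.601) with overlap. Between sudemycin-treated U2AF1(S34F) and vehicle-treated U2AF1(WT) mice both exons passed limma as well, at -18.4 points for the 42-base exon (limma FDR=0.00618) and -12.5 points for the 312-base exon (limma FDR=0.0237). The count of *Kif23* itself rose by 0.21 under vehicle and 0.25 under the drug on the log2 scale.

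Ki-67 is known in a longer and a shorter isoform. In *Mki67*, inclusion of a long coding exon of 960 bases was 79.4%, 81.4%, 80.0%, 74.3% and 79.3% in vehicle-treated U2AF1(WT) mice, against 85.6%, 82.9%, 84.4%, 82.9% and 82.8% in vehicle-treated U2AF1(S34F) mice. It was thus higher in U2AF1(S34F) mice, by 4.82 points (FDR=0.000742, limma FDR=0.345), with every U2AF1(S34F) mouse above every U2AF1(WT) mouse. With sudemycin D6 it was 77.9%, 70.8%, 75.4%, 80.0% and 67% in U2AF1(WT), against 79.2%, 79.6%, 81.3%, 81.5% and 78.2% in U2AF1(S34F) mice. That difference was 5.73 points (FDR=7.01e-06, limma FDR=0.681), and the groups overlapped. With the drug it was lower by 3.75 points in U2AF1(S34F) mice (FDR=0.00444, limma FDR=0.299), again without overlap, and its difference in U2AF1(WT) mice was -4.66 points (FDR=0.57). Each mouse had between 2526 and 5309 junction reads here.

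The exon of 116 bases in *Mki67* was included almost always. Inclusion was 98.4%, 98.3%, 97.9%, 97.2% and 97.4% in vehicle-treated, against 96.4%, 95.6%, 96.1%, 95.6% and 94.4% in sudemycin-treated U2AF1(S34F) mice, a difference of -2.22 points (FDR=0.000131, limma FDR=0.178) without overlap. In U2AF1(WT) mice it was 99.1%, 95.9%, 97.3%, 98.2% and 98.5% with vehicle and 97%, 96.1%, 97.7%, 95.8% and 95.7% with the drug, where mouse 2 had the lowest vehicle value. Over all mice the difference with the drug was -1.79 points (FDR=0.00319, limma FDR=0.0685). The exon of 110 bases in *Birc5* was included in 96.6%, 92.9%, 89%, 89.6% and 87.6% in vehicle-treated U2AF1(WT) mice, against 95.8%, 95%, 96.3%, 95.1% and 93.1% in sudemycin-treated U2AF1(S34F) mice, where mouse 1 of the former alone reached into the range of the latter, a difference of 3.93 points (FDR=0.00627, limma FDR=0.619).

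**Figure D5:**
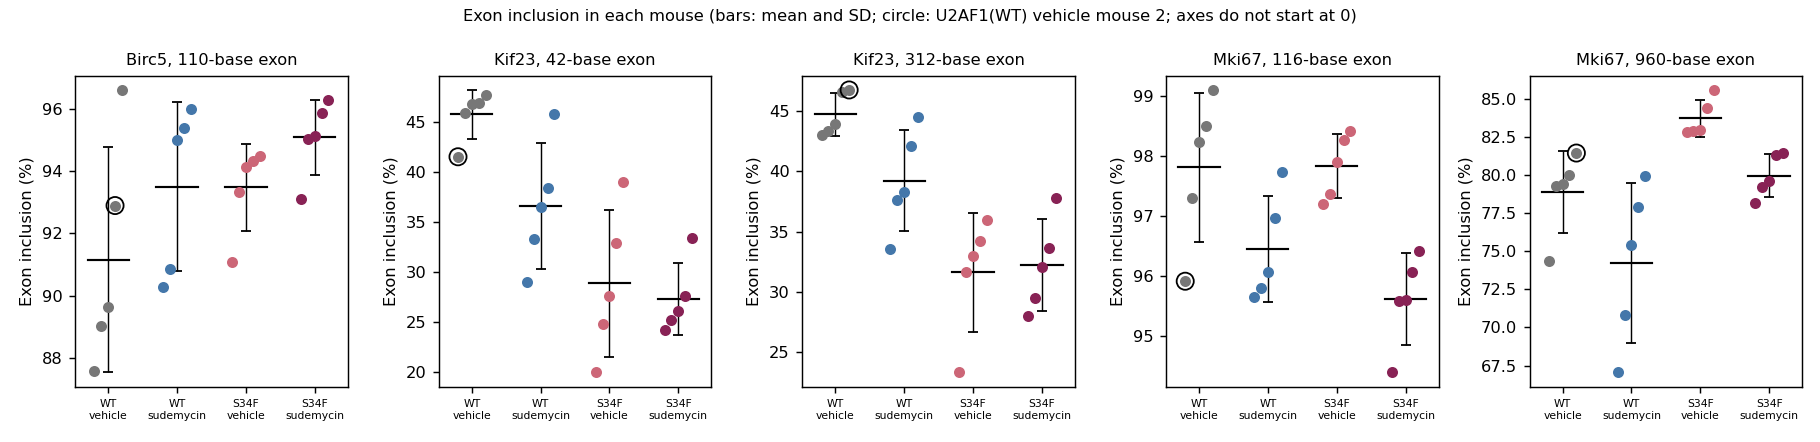
Inclusion in percent (y axes, which do not start at 0) of 5 coding exons in each mouse of the 4 groups (x axes); lines and bars are the mean and SD of 5 mice, and the open circle marks vehicle-treated U2AF1(WT) mouse 2. Both *Kif23* exons are lower and the 960-base exon of *Mki67* is higher in vehicle-treated U2AF1(S34F) than in vehicle-treated U2AF1(WT) mice, without overlap.

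The other called events in these genes had fewer than 10 reads on one form in at least 1 mouse. They lie in *Cenpf*, *Cdk1*, *Ccnb1*, *Kif11*, *Ccna2*, *Cenpe*, *Tyms*, *Mcm7*, *Mki67*, *Kif23* and *Ccnb2*. Their differences lay between -2.02 and 2.38 percentage points, apart from those of an exon of 123 bases in *Cenpf* (-7.52 points under vehicle), a further event of the 312-base exon of *Kif23* (-9.31 points under the drug and -8.62 points with both factors) and 1 event of an exon of 122 bases in *Tyms* (-59.8 points under vehicle). This *Tyms* event had 0 to 123 junction reads per mouse, and its SD in vehicle-treated U2AF1(S34F) mice was 36.0 points. Another event of the same exon had 253 to 1024 junction reads. There, mean inclusion was 4.44% in vehicle-treated U2AF1(WT) and 2.54% in vehicle-treated U2AF1(S34F) mice.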

How the data were processed

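RNA of bulk bone marrow from 20 mice was sequenced in pairs of 126-base reads after depletion of ribosomal RNA, with strand kept. The authors aligned reads with TopHat2 (version 2.0.8, per the labels) to mouse mm9 (NCBI build 37). They deposited raw counts per gene and per splice junction, without normalization. The tool that counted genes is not given in the sources used here. Groups and mouse numbers came from the labels, and each mouse was 1 replicate. Donor marrow was pooled within a genotype before transplant, and the labels name no pool. The p-values between genotypes therefore measure spread among recipients and not among donors. Donor pool and genotype cannot be told apart. Total gene counts of 41145892 to 62138138 per mouse set the counting error.

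Genes were tested with edgeR 4.0.16 (R 4.3.3), with the default filter on low counts, TMM scaling, the robust quasi-likelihood F test, a prior count of 2 for fold changes, and Benjamini-Hochberg adjustment over all genes tested. Each comparison was fitted on its own mice, and the drug over all mice and the interaction on all 20. The threshold was FDR<10%. CPM are counts relative to the library size scaled by TMM. Exon inclusion was built from junction counts and tested with edgeR with a coefficient for each mouse, for events with a mean of at least 10 reads. The dispersion of 0 was chosen in an earlier analysis of these data, after results were seen. Inclusion was also tested with limma 3.58.1, and genes with DESeq2 1.42.0. The scripts were tested on simulated data.

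The 40 genes and all lists of pathway and marker genes were chosen with earlier results of these data known. Genes were given mouse by mouse if they had the 3 smallest p-values of the 40 in a comparison of genotype or drug, or were among 9 fixed genes (*Mki67*, *Top2a*, *Ccnb1*, *Cdk1*, *Mcm2*, *Pcna*, *Rrm2*, *Ccne1* and *E2f1*). Of other pathway genes, those called with the 2 largest changes in each direction per comparison and a few fixed regulators were named. Exons were described if called with at least 10 reads on each form in every mouse, a choice made after the values were seen. *E2f8*, *Bub1b* and other genes named for a count were singled out after their values were seen. Alternatives were another scaling, DESeq2, no filter, a filter at 1 CPM, FDR<5%, autosomal genes alone, a single model of all mice, a replicate block, leaving out each mouse and, added after the data were seen, reads on annotated introns.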

Additional observations from a re-analysis of the deposited data

Results flagged for a closer look

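Values that lay far from the other 4 mice of their group (Dixon's ratio over its critical value) were found in 9 of 80 groups of values of the named genes and exons, where chance gives about 1 in 20 of independent groups. These groups are not independent, because the genes moved together over the same mice and 1 mouse can be flagged in many genes. Vehicle-treated U2AF1(WT) mouse 2 gave 6 of the 9. Its level was 104.8 CPM for *Ccnb1* (56.6 to 69.7 CPM in the others), 147.3 CPM for *Rrm2* (108.3 to 119.5), 26.3 CPM for *Ccne1* (13.7 to 17.2), 58.6 CPM for *Plk1* (36.0 to 41.9) and 76.6 CPM for *Birc5* (51.8 to 56.9), each the highest of its group, and its inclusion of the 42-base exon of *Kif23* was the lowest, at 41.5% (45.9% to 47.7%). Sudemycin-treated U2AF1(S34F) mouse 6 had the lowest level of its group for *Top2a*, at 820.4 CPM (998.8 to 1008 CPM in the others), and for *Ccne2*, at 29.5 CPM (40.5 to 44.2). Vehicle-treated U2AF1(S34F) mouse 1 had the highest *Ccne1*, at 22.4 CPM (20.4 to 20.9).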

How the results depend on the processing

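Of 22 called values of the named genes, 0 changed sign under any setting and 9 lost the call under at least 1. Counts of cell cycle genes called are given with the share of all genes called, in either direction, in brackets. Between genotypes under vehicle the count was 13 at FDR<5% (30.2%), and leaving out 1 mouse gave 13 to 36 (32.2% to 46.3%). Under sudemycin D6 it was 24 to 31 without 1 mouse (29.3% to 39%). For the drug in U2AF1(WT) mice it was 1 in a single model of all mice (6.96%) and 0 to 2 without 1 mouse (1.28% to 4.89%). For the drug in U2AF1(S34F) mice it was 2 at FDR<5% (5.61%), 2 with no filter on low counts (5.44%) and 0 in a single model (5.12%). It was 3 on reads of annotated introns (7.16%) and 1 to 7 without 1 mouse (6.15% to 11.7%). For the drug over all mice it was 1 at FDR<5% (9.83%), 5 with DESeq2 (17.6%) and 1 with no filter (7.92%). It was 1 on intron reads (9.53%) and 1 to 18 without 1 mouse (11.7% to 19.5%). Between sudemycin-treated U2AF1(S34F) and vehicle-treated U2AF1(WT) mice it was 28 to 38 without 1 mouse (43% to 56.1%), and the interaction stayed at 0. Exon events in these genes called by limma were 0 between genotypes under vehicle and under the drug, 0 for the drug in U2AF1(S34F) mice, 3 with both factors and 1 for the drug over all mice, and an estimated dispersion gave 0 in each. Without 1 mouse the event counts were 7 to 10 and 4 to 10 between genotypes, 0 to 2 and 2 to 4 for the drug in U2AF1(WT) and U2AF1(S34F) mice, and 7 to 14 with both factors. Of all events, 2.12% to 3.04% and 1.81% to 2.62% were called between genotypes in these fits. The shares were 1.33% to 1.76% and 0.836% to 1.11% for the drug, and 3.28% to 4.57% with both factors. The cause of these shifts was not tested. Values near 0 that changed sign were those of *E2f1* between genotypes (under vehicle -0.010 on intron reads, and under the drug 1.89e-05 with DESeq2, 0.00016 with its size factors, 0.024 with no filter, 0.0055 on autosomal genes, 0.0038 in a single model, 0.056 with a replicate block and 0.080 on intron reads), of *Bub1* with the drug in U2AF1(WT) mice (0.0083, 0.0082 with size factors and 0.016 in a single model) and of *Pcna* in U2AF1(S34F) mice (-0.0088 with at least 1 CPM in every mouse). Without 1 mouse the log2 fold change ranged over -0.17 to 0.014 for *Plk1* between genotypes under vehicle and -0.073 to 0.074 for *E2f1* under the drug. With the drug in U2AF1(WT) mice it ranged over -0.20 to 0.039 for *Mki67*, -0.045 to 0.097 for *Mcm2*, -0.037 to 0.078 for *Tyms* and -0.094 to 0.15 for *Bub1*. In U2AF1(S34F) mice the ranges were -0.038 to 0.066 for *Mcm2*, -0.026 to 0.057 for *Pcna* and -0.058 to 0.076 for *Ccne2*. A replicate block by mouse number gave 33 genes and 0 events between genotypes under vehicle, 22 genes and 0 events under sudemycin D6, and 0 genes for the interaction. Of all genes it called 31.2% under vehicle and 25.3% under sudemycin D6. Same-numbered mice correlated at -0.048 to 0.134 and -0.111 to 0.210 in their deviations from group means, so the numbers were not taken to pair mice. No paired analysis was possible because the drug groups share no mouse numbers, and the comparison of both factors shares fewer than 2.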
